A study of Mus musculus with 23 samples.

Results

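Undifferentiated R1 embryonic stem cells (ESCs) labelled as knocked out for SET were compared with wild-type R1 ESCs in 2 separately titled sets, and the comparison described here asks for which genes the effect of the knockout differed between the sets. R1 is a male mouse ESC line. The samples are all untreated R1 libraries whose title code starts with 2 (set 2) or 1 (set 1), 16 of 23 libraries. Libraries with the same code were summed, which gave 12 of 19 samples. RNA was measured by QuantSeq, which sequences a tag near the 3′ end of polyadenylated transcripts.

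In set 2 the knockout (KO, genotype SET-/-) group had 4 samples, 2c and 2d of line KO1 and 2e and 2f of line KO2, made of 6 libraries. The set 2 wild-type (WT) group had 2 samples, 2a and 2b, made of 4 libraries. In set 1 the KO group had 4 samples of 1 library each, 1c and 1d of KO1 and 1e and 1f of KO2, and the WT group had 2, 1a and 1b. All were grown on mouse embryonic fibroblast feeders in serum with LIF, a cytokine that holds ESCs undifferentiated. The titles do not tell whether a line called KO1 in set 2 is the clone called KO1 in set 1, nor how the gene was edited. The labels do not say that samples of a group are separate cultures. Each p-value thus covers sample to sample spread only, which may in part or wholly be technical.

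SET is a histone chaperone that binds core histones and shields their tails from acetylation, and it inhibits the phosphatase PP2A. Of the 99 genes that separated the sets, 13 belong to the contractile actin cytoskeleton list. Contractile genes, such as those for smooth muscle actin, tropomyosin, calponin and transgelin, are classic targets of serum response factor (SRF) and its cofactor MRTF, which enters the nucleus when free actin monomer falls. The transgelin gene Tagln was not among those called. SRF binds a CArG box, a palindromic motif of CC, 6 bases A or T, and GG.

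Promoter windows of 4 contractile genes are shown because the contractile group held the most called genes of any list. They come from RefSeq (GRCm38.p6) and cover 250 bases before to 50 after the transcription start on the transcribed strand. Capitals mark CArG boxes with at most 1 C or G among the 6 inner bases. The reverse complement of such a box is also such a box, so each match stands for both strands. Acta2, Acta1 and Cnn2 were called in the comparison of the sets and Vcl was not. All 4 windows shown hold such a box. The windows of Tpm1, Cnn1 and Csrp1, which were also called, hold none and are not shown.
Acta2, chr19:34255324-34255623, minus strand: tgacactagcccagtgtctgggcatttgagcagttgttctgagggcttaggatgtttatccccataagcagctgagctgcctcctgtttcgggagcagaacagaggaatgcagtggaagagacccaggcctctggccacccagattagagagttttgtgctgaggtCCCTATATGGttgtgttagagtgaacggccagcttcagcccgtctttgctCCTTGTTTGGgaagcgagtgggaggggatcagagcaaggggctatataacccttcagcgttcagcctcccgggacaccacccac
Acta1, chr8:123894726-123895025, minus strand: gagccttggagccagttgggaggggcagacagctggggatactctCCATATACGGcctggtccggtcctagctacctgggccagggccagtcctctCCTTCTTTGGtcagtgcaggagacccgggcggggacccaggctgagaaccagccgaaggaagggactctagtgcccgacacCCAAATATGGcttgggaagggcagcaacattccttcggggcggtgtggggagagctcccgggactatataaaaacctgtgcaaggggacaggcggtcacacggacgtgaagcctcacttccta
Cnn2, chr10:79988350-79988649, plus strand: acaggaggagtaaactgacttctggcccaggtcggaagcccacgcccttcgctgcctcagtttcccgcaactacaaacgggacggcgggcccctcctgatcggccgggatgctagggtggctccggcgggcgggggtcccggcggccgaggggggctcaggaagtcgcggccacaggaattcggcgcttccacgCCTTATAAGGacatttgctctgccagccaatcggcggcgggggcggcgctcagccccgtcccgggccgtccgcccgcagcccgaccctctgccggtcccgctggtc
Vcl, chr14:20929148-20929447, plus strand: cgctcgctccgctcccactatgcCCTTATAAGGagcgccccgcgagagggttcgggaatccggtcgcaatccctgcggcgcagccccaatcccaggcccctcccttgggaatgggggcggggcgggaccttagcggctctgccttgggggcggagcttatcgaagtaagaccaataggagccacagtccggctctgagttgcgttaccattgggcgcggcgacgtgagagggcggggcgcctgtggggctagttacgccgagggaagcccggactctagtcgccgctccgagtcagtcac

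The boxes of Acta2 start 84 and 34 bases before the transcription start, those of Acta1 at 205, 154 and 73, that of Cnn2 at 56 and that of Vcl at 227. An exact CArG box was found in the windows of 2 of 12 called contractile genes with a promoter in the table (16.7%) and of 9 of 31 that were tested and not called (29.0%), against 1.52% of the tested genes with a promoter. With 1 C or G allowed the shares were 33.3%, 38.7% and 10.4%. The motif was therefore frequent in contractile promoters of this list whether or not the gene was called between the sets. A match describes the letters of the window and is not evidence of binding.

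The targeted gene was read in every sample first. Set (chromosome 2, 30057378 to 30072577, GRCm38) stood at 521, 564, 392 and 276 CPM (depth-scaled counts, with TMM factors; KO1 samples before KO2 samples here and below) in set 2 KO, against 1208 and 1408 CPM in set 2 WT. In set 1 it stood at 24.0, 22.1, 18.4 and 27.2 CPM in KO, against 1038 and 1071 CPM in WT. KO samples lay below WT samples in both sets without overlap, and the lowest set 2 KO sample lay above the highest set 1 KO sample. The WT groups of the 2 sets lay close together, so the sets differed mainly in how much Set transcript the KO samples held.

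On the log2 scale the KO effect on Set was -1.58 (SE 0.19) in set 2 and -5.51 (SE 0.24) in set 1, a difference of 3.94 (SE 0.33, edgeR adjusted p = 2.29e-06). In set 2 it was -1.27 in KO1 and -1.97 in KO2, and in set 1 -5.53 and -5.50. A 3′ tag checks a knockout only if the tag lies in the deleted part or the transcript is lost, and the labels do not give the edited sequence. No other gene of the histone chaperone list or of the PP2A list was called between the sets. Anp32a, which codes for another acidic histone-binding inhibitor of PP2A, fell in both sets, by 0.65 on the log2 scale in set 2 (edgeR adjusted p = 0.00215) and by 0.51 in set 1 (adjusted p = 0.0227), and the difference was -0.14 (SE 0.20, adjusted p = 0.853). The catalytic PP2A subunit gene Ppp2ca had log2 effects of -0.02 in set 2 and 0.10 in set 1 (difference -0.13, SE 0.18, adjusted p = 0.850).

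The samples differed in depth. Set 2 samples held 2833064 to 10217040 counts, at which 3 counts equal 0.294 to 1.06 CPM, and set 1 samples held 806412 to 1445013 counts, at which 3 counts equal 2.08 to 3.72 CPM. The 12 ESC markers fixed for the check were at 10 CPM or more in all 4 groups, with summed levels of 2884 to 3527 CPM in set 2 KO, 4395 to 4493 in set 2 WT, 3167 to 3309 in set 1 KO and 5236 to 5817 in set 1 WT. Which set a sample belongs to goes together with depth and with any difference in culture or library preparation, and these cannot be told apart. An example is the cytoplasmic ribosomal protein genes, whose median level was 2.18 log2 units lower in set 2 WT than in set 1 WT (median -2.18 over 54 genes) and -2.22 in KO, while their KO effects had medians of -0.07 in set 2 and -0.21 in set 1. The list was split, with 47 genes lower and 7 higher in set 2 WT, from -7.17 for Rps6 to 1.75 for Rps14.

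Across 11946 genes tested, 99 (0.829%) had a KO effect that differed between the sets (edgeR quasi-likelihood F test of the set by genotype interaction, Benjamini-Hochberg adjusted p under 0.05). Of these, 80 genes (0.67%) had a lower KO effect in set 2 and 19 (0.159%) a higher one. All 80 were higher in KO than in WT of set 1, and all 19 were lower in KO of set 1. In all 99 the KO effect was closer to zero in set 2, which also held for 8155 of the 11946 genes tested. Smaller effects in set 2 were thus the rule for called genes in both directions.

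The 80 genes had a median log2 effect of KO over WT of 0.67 in set 2 and 2.42 in set 1, and the 19 had medians of -0.40 and -1.59. Of the 80, 76 had a positive and 4 a negative effect in set 2, and 47 also passed the test there with the same sign; of the 19, all were negative in set 2 and 6 passed. KO and WT samples did not overlap in set 2 for 78 of the 99 genes (3797 of 11946 over all genes tested) and in set 1 for all 99 (4011 of 11946). These counts describe the called genes, since the interaction is built from the same samples.

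**Figure D1:**
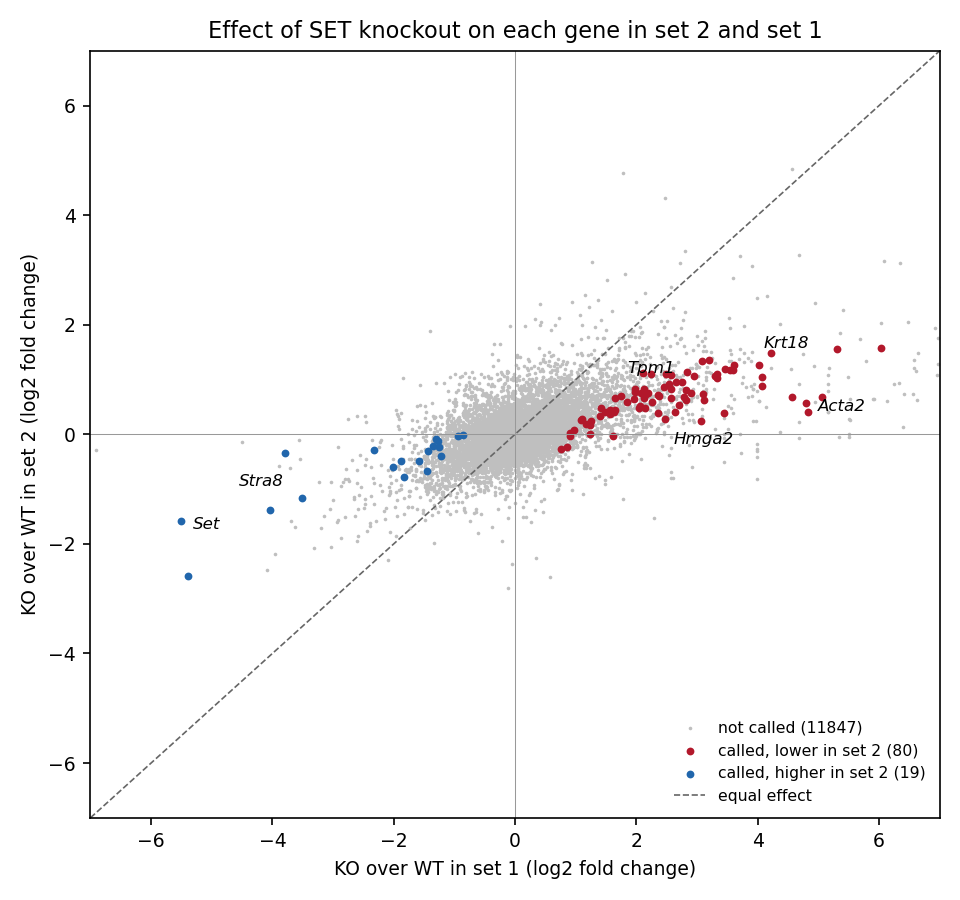
Log2 fold change of KO over WT in set 2 (vertical axis) against set 1 (horizontal axis) for each gene tested; red points are the 80 genes with a lower and blue points the 19 genes with a higher KO effect in set 2, grey points were not called, and 15 genes lie beyond the axes. Called genes lie between the horizontal zero line and the dashed line of equal effect or just past zero, so their effects were smaller in set 2.

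Genes called for KO against WT within a set also had larger effects in set 1 as a median. From the same fit, 869 genes were called for KO against WT in set 2 (7.27%), 521 higher (4.36%) and 348 lower (2.91%). In set 1, 1686 were called (14.1%), 936 higher (7.84%) and 750 lower (6.28%). The set 2 count was 126 without WT sample 2b, 346 without 2a and 523 without KO2 sample 2e, and the set 1 count was 783 without WT sample 1a. The 936 genes called higher in set 1 had a median log2 effect of 0.57 in set 2, where 95.7% had the same sign, and 1.44 in set 1. The 750 called lower there had medians of -0.41 in set 2, with 93.1% of the same sign, and -0.92 in set 1. Read the other way, the 521 genes called higher in set 2 had a median of 0.98 there and 1.41 in set 1, and the 348 called lower had -0.78 and -0.90. Of genes called in both sets, 339 were higher in both, 215 lower in both and 0 opposite. Choosing genes by a call raises their value in the set that chose them, and the set 1 medians were the larger ones under either choice. These medians include genes called between the sets, 80 of the 936, 19 of the 750, 47 of the 521 and 6 of the 348. They are thus not separate from the comparison of the sets.

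The number of calls rested on single samples. Against 99 with all samples, it was 22 without set 1 WT sample 1a and 46 without 1b. It was 43 without set 2 WT sample 2a and 41 without 2b. Without single KO samples it was 52 (set 2 sample 2d), 62 (2e) and 54 (set 1 sample 1e). With 2 WT samples a set, leaving out 1 leaves a lone WT sample that is assumed to vary like the other groups. All 99 genes kept the sign of the difference in each of these fits. Of the 99 calls, 15 held without any 1 of the 12 samples, among them Acta2, Tpm1, Krt18, Hmga2, Set, Stra8, Anxa3, Lgals1, Csrp1, Cald1, Phldb2, Sparc and Peg3. A further 9, among them Krt8, Efnb2, Nes, Thbs1, Timp2 and S100a6, were lost without 1a alone.

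Set 2 libraries also fell into 2 groups, A and B, on the first principal component (31.8% of the variance after removing line means); the labels name no batch. Each of A and B held 2 WT and 3 KO libraries, and 4 of the summed samples had a library in each. KO1 sample 2c lay in B alone and KO2 sample 2f in A alone. Depth was uneven too, as WT sample 2b summed 7941952 counts from A and 2275088 from B. A thus weighed more in summed set 2 WT than in summed set 2 KO. The set 2 KO effect is therefore partly confounded with library group. With A alone the interaction called 136 genes, 81 of them among the 99, and with B alone 126, 65 of them among the 99. The Acta2 difference was -3.997 in A and -4.36 in B, that of Tpm1 -2.21 and -1.89, that of Krt18 -3.07 and -2.72, and that of Hmga2 -2.27 and -2.11. The edgeR adjusted p of these values ranged up to 0.000293, so the 4 marker genes were called within each of A and B. Both fits used the same set 1 libraries, so agreement between A and B is not independent of those libraries. Of the 52 named genes, however, 8 were not called with A alone (Triml1, Ldlrad3, Rcbtb1, Sun1, H19, Pim2, Pou3f1 and Sema6a, at adjusted p up to 0.812). With B alone 17 were not called, at adjusted p up to 0.719. These were Spry4, Ptch1, Ldlrad3, Lef1, Egln3, Rcbtb1, Sun1, Tgfb1i1, Fst, Cyp26a1, Efna5, Cldn4, Peg10, Gap43, Tcf7l2, Id3 and Phlda1. In A or B the difference of 5 genes (Lef1, Egln3, Pou3f1, Phlda1 and S100a6) moved by more than 1.5 times, and their values are given with each gene.

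Contractile and actin cytoskeleton genes made up the largest group. Of 50 listed genes 49 were tested, and 13 of them (background, the share of all genes tested that were called in this direction, 0.67%) had a lower KO effect in set 2, with 0 higher. The median difference was -0.63 over the 49 genes, against -0.02 over all genes tested, and 46 of the 49 had a negative difference. KO over WT had a median log2 of 0.25 in set 2, where 8 genes were called higher (background 4.36%) and 1 (Csrp2) lower, and of 0.89 in set 1, where 27 were called higher (background 7.84%) and 0 lower. Without set 1 WT sample 1a the count of 13 became 5, and over the 12 left-out samples it ranged from 5 to 16.

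Acta2 (chromosome 19, 34241090 to 34255590), which codes for smooth muscle α-actin, had the largest difference of the 4 marker genes. It stood at 187, 242, 252 and 254 CPM in set 2 KO, against 145 and 169.6 CPM in set 2 WT. Acta2 in set 1 stood at 105, 115, 115 and 115 CPM in KO, against 5.33 and 2.71 CPM in WT. KO samples exceeded WT samples in both sets, and all set 2 WT samples were higher than any set 1 KO sample. The log2 effect of KO was 0.57 (SE 0.14, edgeR adjusted p = 0.0125) in set 2 and 4.79 (SE 0.31, adjusted p = 3.03e-11) in set 1, a difference of -4.22 (SE 0.36, adjusted p = 6.13e-08). The set 2 effect was 0.79 with library group A alone (edgeR adjusted p = 0.00754) and 0.43 with B alone, where it did not pass (adjusted p = 0.101). WT samples differed between the sets by 5.27 log2 units (set 2 over set 1), and KO samples by 1.06.

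Tpm1 (chromosome 9, 67022590 to 67049406), the tropomyosin that lines actin filaments, had another pattern of levels. It stood at 664, 654, 654 and 519 CPM in set 2 KO, against 365 and 346 in set 2 WT. Tpm1 in set 1 stood at 1283, 1457, 1423 and 1366 CPM in KO, against 199.8 and 194 in WT. Set 1 KO was the highest and set 1 WT the lowest of the 4 groups, with no overlap between groups. The effect was 0.81 (SE 0.13) in set 2 and 2.81 (SE 0.15) in set 1, a difference of -2.003 (SE 0.19, edgeR adjusted p = 2.54e-07), with set 2 higher in WT by 0.85 and lower in KO (-1.15). Acta2 thus differed between the sets mainly in WT, and Tpm1 in both WT and KO and in opposite directions.

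Csrp1, a LIM protein of actin bundles, stood at 128, 122, 125 and 126 CPM in set 2 KO against 73.4 and 68.9 in WT. Csrp1 in set 1 stood at 94.6, 118, 105 and 128 CPM in KO against 15.98 and 21.7 in WT. Its KO levels overlapped between the sets and its WT levels did not. The difference was -1.76 (SE 0.26, edgeR adjusted p = 0.000443). Caldesmon, Cald1, which binds tropomyosin and myosin, stood at 187, 211, 225 and 197 CPM in set 2 KO against 130.4 and 121 in WT. Cald1 in set 1 stood at 357, 371, 478 and 472 CPM in KO against 108 and 55.2 in WT. Its set 1 KO samples lay above all others, and the difference was -1.65 (SE 0.26, adjusted p = 0.00116).

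Acta1, skeletal muscle α-actin, had the lowest difference of all named genes and rested on few counts. It stood at 54.2, 45.2, 44.7 and 21.1 CPM in set 2 KO against 15.1 and 13.3 in WT. Acta1 in set 1 stood at 63.5, 78.3, 64.0 and 41.1 CPM in KO against 1.78 and 0 in WT. Set 1 WT held 2 counts against 298 in set 1 KO, a ratio of 68.7 (95% interval 18.9 to 570, counting error only). The fitted difference was -4.47 (SE 0.96, edgeR adjusted p = 0.0370), and the call was lost without any 1 of 8 samples, at adjusted p up to 0.248. Tgfb1i1 (Hic-5), a focal adhesion LIM protein, likewise had 2 counts in set 1 WT and a ratio there of 25.1 (6.80 to 210). It stood at 6.04 to 7.14 CPM in set 2 KO, 3.56 and 5.24 in set 2 WT, 18.5 to 25.2 in set 1 KO and 0 and 1.81 in set 1 WT. Its call (difference -3.90, adjusted p = 0.00859) was lost without 1a (adjusted p = 0.170).

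Calponin genes split the list further. Cnn1, the smooth muscle calponin, stood at 23.4, 28.3, 27.7 and 24.2 CPM in set 2 KO against 19.01 and 15.5 in WT. Cnn1 in set 1 stood at 39.5, 47.7, 64.8 and 35.8 CPM in KO against 7.99 and 2.71 in WT, and none of the 4 groups overlapped. The Cnn1 difference was -2.49 (SE 0.46, edgeR adjusted p = 0.00519), lost without 1b, with an adjusted p of 0.0986. Cnn2, the broadly expressed calponin, had nearly equal WT levels, 72.8 and 76.6 CPM in set 2 and 79.9 and 82.3 in set 1. Its KO samples stood at 67.6 to 106 CPM in set 2, overlapping WT, and at 175 to 225 in set 1, above WT. The Cnn2 difference was -1.01 (SE 0.24, adjusted p = 0.0355), lost without any 1 of 7 samples at adjusted p up to 0.190.

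The other called members had differences between -1.91 and -0.82. They were the focal adhesion LIM protein Zyx (-1.91), the filamins Flnc (-1.53) and Flna (-1.08), which crosslink actin, the non-muscle myosin heavy chain Myh9 (-0.83) and the transgelin Tagln2 (-0.82). None of these 5 passed the KO test in set 2, and all 5 did in set 1. Each call ended without at least 1 sample, that of Zyx at adjusted p up to 0.176 (without 1a, 1b or 2b), those of Flna up to 0.111 and Flnc up to 0.263 (without 1a or 2a), and those of Myh9 up to 0.242 and Tagln2 up to 0.340 (8 samples each).

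Several core members did not pass. Vcl, coding for vinculin, stood at 4.08 to 7.25 CPM in set 2 KO and 4.92 and 4.50 in WT. Vcl in set 1 stood at 5.96 to 9.26 CPM in KO, against 0.888 and 0 in WT. The Vcl difference was -3.67 (SE 1.00, edgeR adjusted p = 0.0914). Tagln, coding for transgelin, stood at 21.8 to 29.9 CPM in set 2 KO and 12.5 and 9.95 in WT. In set 1 it stood at 168, 24.2, 167 and 154 CPM in KO, with KO1 sample 1d far below the other 3. WT of set 1 stood at 7.10 and 3.62. The Tagln difference was -3.35 (SE 1.29, edgeR adjusted p = 0.390). Cytoplasmic β-actin, Actb, had a difference of -0.87 (SE 0.22, adjusted p = 0.0534), and the level of Srf itself had one of 0.20 (SE 0.95, adjusted p = 0.963).

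**Figure D2:**
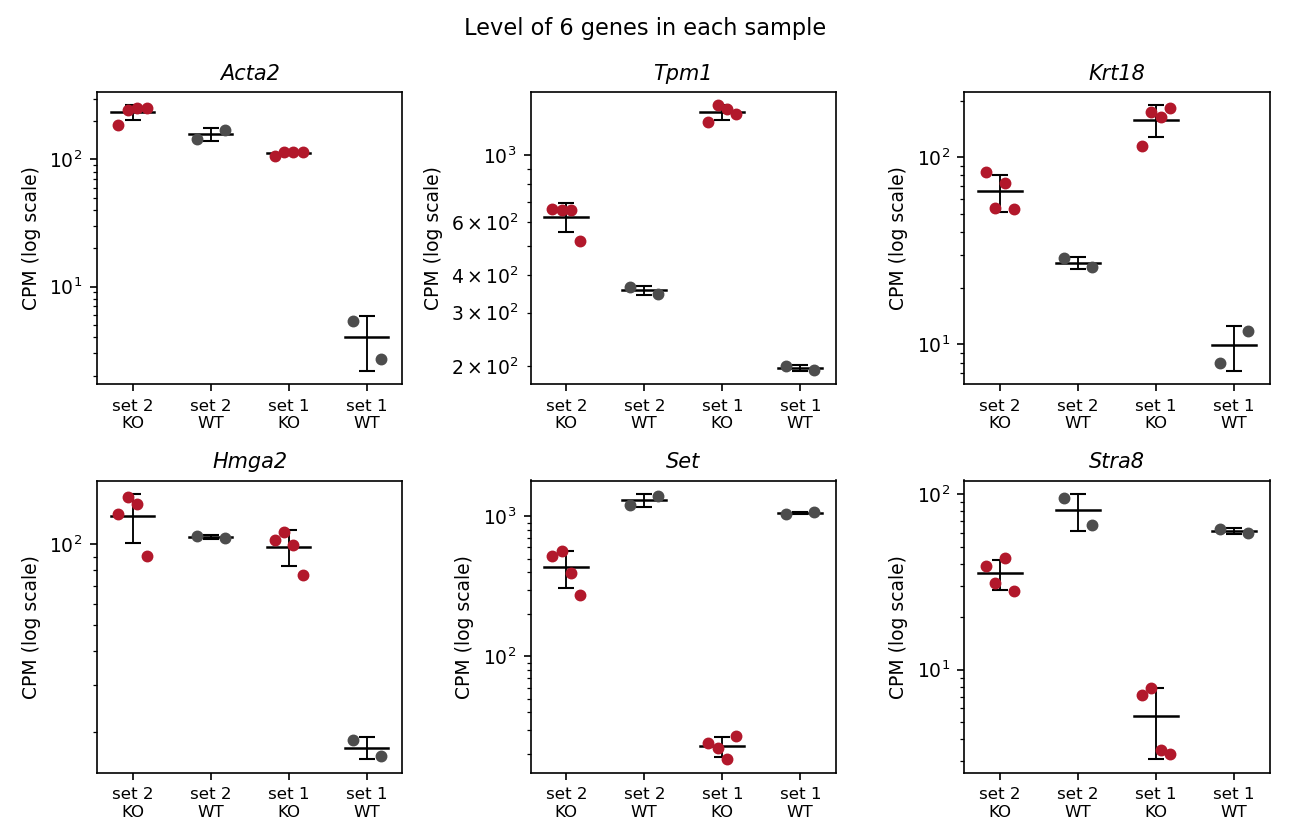
CPM of the 4 marker genes, Set and Stra8 in each sample on log axes; red points are KO and grey points WT samples, horizontal lines are group means and bars are ± 1 SD (n = 4 KO and 2 WT samples a set). For Acta2 and Hmga2 the set 1 WT samples stand below the other 3 groups, for Tpm1 and Krt18 set 1 KO is highest and set 1 WT lowest, and for Set and Stra8 set 1 KO is lowest.

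The keratins Krt18 and Krt8 had the order of levels seen for Tpm1, with set 1 KO highest and set 1 WT lowest. Of 24 keratin and junction genes tested, 3 were called with a lower effect in set 2 (Krt18, Krt8 and Cldn4; background 0.67%) and 0 with a higher one; the median difference was -0.43. Without 1a the count was 1. Krt18 (chromosome 15, 102028180 to 102032027), which pairs with Krt8 in the first keratin filaments of the embryo, stood at 83.2, 53.8, 73.3 and 52.997 CPM in set 2 KO against 28.8 and 25.9 in WT. Krt18 in set 1 stood at 115, 174, 165 and 184 CPM in KO against 7.99 and 11.8 in WT. The 4 groups did not overlap, with set 1 at both ends. The effect was 1.27 (SE 0.20, edgeR adjusted p = 0.000178) in set 2 and 4.02 (SE 0.30, adjusted p = 1.03e-09) in set 1, a difference of -2.75 (SE 0.38, adjusted p = 0.000293).

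Krt8 (chromosome 15, 101996698 to 102004482) stood at 52.0, 53.4, 57.3 and 33.9 CPM in set 2 KO against 21.0 and 22.7 in WT. Krt8 in set 1 stood at 67.1, 71.2, 72.7 and 70.2 CPM in KO against 4.44 and 7.24 in WT. The 4 groups were apart here too. Its difference was -2.42 (SE 0.40, edgeR adjusted p = 0.00176; adjusted p = 0.0952 without 1a). Cldn4, a tight junction claudin, stood at 269.9, 228, 230.0 and 226 CPM in set 2 KO and 212 and 209 in WT. Cldn4 in set 1 stood at 178 to 261 CPM in KO, against 87.9 and 107 in WT. Its KO levels overlapped between the sets while set 1 WT lay below the other groups. Its difference of -0.99 (SE 0.22, edgeR adjusted p = 0.0232) was lost without any 1 of 6 samples, at adjusted p up to 0.223. Krt19, another simple-epithelial keratin, rose in both sets, by 2.09 on the log2 scale in set 2 (adjusted p = 2.22e-05) and 2.77 in set 1 (adjusted p = 2.33e-06), and its difference of -0.68 (SE 0.49, adjusted p = 0.651) did not pass. E-cadherin, Cdh1, stood higher in set 2 in both genotypes, with KO samples at 3144 to 4499.6 CPM and WT samples at 3579 and 3353. In set 1 the KO samples stood at 1124 to 1730.2 CPM and the WT samples at 844 and 1088. The Cdh1 difference in KO effect was -0.38 (SE 0.22, adjusted p = 0.550).

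Hmga2 (chromosome 10, 120361275 to 120476469), an oncofetal chromatin protein and let-7 target, was higher in KO of set 1 and did not pass in set 2. It stood at 129.9, 149.9, 142 and 90.2 CPM in set 2 KO, against 108 and 105 in set 2 WT. Hmga2 in set 1 stood at 104, 111, 99.9 and 76.9 CPM in KO, against 18.6 and 16.3 in WT. KO and WT overlapped in set 2 and were apart in set 1, and set 1 WT lay below the other 3 groups. The log2 effect was 0.27 (SE 0.17, edgeR adjusted p = 0.380) in set 2 and 2.48 (SE 0.27, adjusted p = 1.95e-07) in set 1, a difference of -2.21 (SE 0.32, adjusted p = 0.000308). Of 20 oncofetal and let-7 genes tested, 3 were called (Hmga2, Peg10 and H19; background 0.67%), with a median difference of -0.22, and 1 without 1a, 1b, 1e, 2a, 2b or 2d. Lin28a, the RNA-binding protein that blocks let-7 processing, had a difference of -0.63 (SE 0.20, adjusted p = 0.177), and Lin28b one of 0.02 (SE 0.37, adjusted p = 0.992).

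Among 26 imprinted genes tested, H19, Peg3 and Peg10 were called lower (background 0.67%) and 0 higher, and 1 without 1a, 1b, 1e, 2a, 2b or 2d. Peg3, a paternally expressed zinc finger gene, stood at 274, 263, 319 and 220.4 CPM in set 2 KO against 173 and 169.9 in WT. Peg3 in set 1 stood at 166, 191, 193 and 176 CPM in KO against 48.0 and 35.3 in WT. Set 2 was higher in both genotypes, and more so in WT (2.04 log2 units) than in KO (0.57), so that the difference in KO effect was -1.47 (SE 0.24, edgeR adjusted p = 0.00144). H19, a maternally expressed noncoding RNA, had 2 counts in set 1 WT and a KO to WT ratio there of 41.3 (95% interval 11.3 to 344). It averaged 22.04 CPM in set 2 KO and 7.65 in set 2 WT, against 37.3 in set 1 KO and 0.896 in set 1 WT. Its call (difference -3.75, adjusted p = 0.0355) was lost without any 1 of 8 samples, at adjusted p up to 0.268. Peg10 averaged 86.2 CPM in set 2 KO and 61.9 in WT, against 221 in set 1 KO and 83.3 in WT (difference -0.93, adjusted p = 0.0421), and was also lost without any 1 of 8 samples, at adjusted p up to 0.236.

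S100, annexin and galectin genes, small calcium- or sugar-binding proteins of the cell cortex and surface, held 4 called genes among 18 tested (S100a6, Anxa3, Lgals1 and Anxa2; background 0.67%), all with a lower effect in set 2, and a median difference of -0.81. Without 1a the count was 2. Lgals1, coding for galectin-1, stood at 267, 238, 275 and 232 CPM in set 2 KO against 182 and 182 in WT. Lgals1 in set 1 stood at 153, 183, 202 and 208 CPM in KO against 45.3 and 45.2 in WT. All samples of set 2 KO exceeded those of set 1 KO, and the WT groups lay further apart still. The difference was -1.57 (SE 0.22, edgeR adjusted p = 0.000293).

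Anxa3 had the opposite order of KO levels. It stood at 42.3, 43.3, 52.2 and 42.3 CPM in set 2 KO against 19.7 and 18.3 in WT. Anxa3 in set 1 stood at 104, 97.5, 117 and 119.9 CPM in KO against 11.5 and 6.33 in WT, so its set 1 KO level was the highest. The Anxa3 difference was -2.35 (SE 0.33, edgeR adjusted p = 0.000293). S100a6 stood at 384, 417, 487 and 786 CPM in set 2 KO against 333 and 442 in WT, overlapping. S100a6 in set 1 stood at 593, 589.5, 552 and 574 CPM in KO against 84.4 and 100.4 in WT. The S100a6 difference was -2.23 (SE 0.34, edgeR adjusted p = 0.00388), with an adjusted p of 0.111 without 1a. It was -2.24 with library group A alone and -1.34 with B alone, both called (adjusted p = 7.97e-06 and 0.000258). Anxa2 did not pass in set 2 (log2 -0.03, adjusted p = 0.936) and rose in set 1 by 0.90 (adjusted p = 0.000386), and its difference of -0.93 (adjusted p = 0.0311) was lost without any 1 of 5 samples at adjusted p up to 0.303.

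CCN matricellular and YAP target genes, which report on cell contact and tension, held 3 called genes of 31 tested (Ccn4, Amotl1 and Crim1; background 0.67%), all lower, with a median difference of -0.77 and medians of 0.55 in set 2 and 1.65 in set 1. Without 1a or without 1b the count was 0. Amotl1, an angiomotin that binds YAP, stood at 248, 201, 225 and 168 CPM in set 2 KO against 96.0 and 101 in WT. Amotl1 in set 1 stood at 147, 176, 129 and 162 CPM in KO against 28.4 and 37.1 in WT, and KO levels overlapped between the sets. The Amotl1 difference was -1.14 (SE 0.26, edgeR adjusted p = 0.0331), with an adjusted p up to 0.303 without 1 of 6 samples. Crim1 averaged 40.1 CPM in set 2 KO and 25.0 in WT, against 62.7 in set 1 KO and 12.1 in WT (difference -1.68, adjusted p = 0.0169; up to 0.127 without 1a, 1b or 2a). Ccn4 had 1 count in set 1 WT, a KO to WT ratio there of 36.9 (95% interval 6.44 to 1476) and a fitted difference of -4.39 (adjusted p = 0.00894), lost without 1a or 1b at adjusted p up to 0.122.

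The best known YAP targets of the list did not pass. Ccn1 stood at 228, 162, 205 and 126 CPM in set 2 KO and 41.0 and 55.1 in WT, and in set 1 at 184, 20.6, 168 and 227 CPM in KO and 14.2 and 19.9 in WT (difference -1.24, SE 1.196, edgeR adjusted p = 0.766). Sample 1d of KO1 was the lowest KO sample of set 1 for Ccn1, as for Tagln above, and lay near WT for Ccn1. Ccn2 stood at 496 to 970.0 CPM in set 2 KO and 237 and 359 in WT, against 117 to 358 in set 1 KO and 63.9 and 73.3 in WT (difference -0.77, SE 0.64, adjusted p = 0.721). Of the immediate early genes, 2 of 28 were called lower (background 0.67%; 0 without 1a or 2a), Jun (difference -1.43, adjusted p = 0.00712; lost without 1a or 2a, with an adjusted p up to 0.144) and Fosl2 (-1.70, adjusted p = 0.0420; lost without any 1 of 8 samples, with an adjusted p up to 0.259), both subunits of AP-1.

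Matrix and adhesion genes followed. Of 40 cadherin switch, EMT (epithelial to mesenchymal transition) and integrin genes tested, 2 were called (Thbs1 and Timp2; background 0.67%), with medians of 0.44 in set 2 and 1.36 in set 1 and 8 and 25 genes called higher in KO (backgrounds 4.36% and 7.84%). Thbs1, thrombospondin 1, stood at 48.6, 50.03, 52.2 and 51.0 CPM in set 2 KO against 21.3 and 23.2 in WT. Thbs1 in set 1 stood at 133, 81.9, 132 and 96.7 CPM in KO against 3.55 and 15.4 in WT, again with set 1 at both ends. The Thbs1 difference was -2.37 (SE 0.41, edgeR adjusted p = 0.00271). Timp2, a metalloproteinase inhibitor, stood at 109.9, 117, 114 and 102 CPM in set 2 KO against 70.5 and 72.2 in WT. Timp2 in set 1 stood at 45.5, 61.9, 68.3 and 52.3 CPM in KO against 4.44 and 11.8 in WT, so that set 2 WT exceeded set 1 KO. The Timp2 difference was -2.19 (SE 0.35, edgeR adjusted p = 0.00119). Both calls were lost without 1a, at adjusted p = 0.103 and 0.101, which made the count 0. Vim and Fn1, the usual mesenchymal markers, had differences of -0.11 (SE 0.25, adjusted p = 0.911) and 0.17 (SE 0.21, adjusted p = 0.820).

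Basement membrane genes held 2 lower calls among 20 tested (background 0.67%), and 1 without 1a, 1b, 1e, 2a, 2b or 2d. Sparc, a collagen-binding matrix protein, stood at 1096, 983, 1119 and 929 CPM in set 2 KO against 637 and 665 in WT. Sparc in set 1 stood at 1121, 1399, 1319.5 and 1337 CPM in KO against 426 and 396 in WT. The Sparc difference was -0.99 (SE 0.18, edgeR adjusted p = 0.00476). Col4a2, a collagen IV chain, averaged 64.5 CPM in set 2 KO and 38.4 in WT, against 166 in set 1 KO and 42.6 in WT (difference -1.21, adjusted p = 0.0329; up to 0.153 without 1 of 6 samples). Its partner chain Col4a1 had a difference of -0.81 (SE 0.26, adjusted p = 0.176), and Lamb1 rose in both sets, by 0.92 and 1.43 on the log2 scale, with a difference of -0.51 (SE 0.19, adjusted p = 0.303). The primitive and visceral endoderm list, which holds Sparc, Col4a2, Krt8, Krt18 and Fst, had these 5 called lower of 29 tested (background 0.67%), and 2 without 1a. Its regulators did not pass, with differences of -0.09 for Gata4 (SE 0.56, adjusted p = 0.974), -0.05 for Gata6 (SE 0.32, adjusted p = 0.976) and 0.05 for Sox17 (SE 0.47, adjusted p = 0.985).

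Markers of the fibroblast feeder layer were read in the same samples. Of 35 marker genes 21 were tested and 1 was called lower (background 0.67%), Col1a1, with a median difference of -1.29 and medians of 0.61 in set 2 and 2.15 in set 1. Summed over the 35 genes they stood at 490 to 668 CPM in set 2 KO, 336 to 414 in set 2 WT, 436 to 580 in set 1 KO and 191 to 236 in set 1 WT. The 7 defining markers (Col1a1, Col1a2, Col3a1, Thy1, Dcn, Lum and Postn) summed to 82.0 to 118 CPM in set 2 KO, 52.4 to 67.7 in set 2 WT, 67.6 to 96.4 in set 1 KO and 12.7 to 24.0 in set 1 WT. Of them Lum was at 0 in set 2 WT and set 1 KO, Dcn, Lum and Postn were at 0 in set 1 WT, and none was at 0 in set 2 KO. Set 1 WT was thus lowest for feeder markers, as for Acta2, Hmga2 and Lgals1, and their part in these differences was not tested; in bulk samples fewer cells of a type and less RNA per cell cannot be told apart.

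Col1a1 stood at 45.3, 48.5, 54.6 and 65.7 CPM in set 2 KO against 27.2 and 35.3 in WT. Col1a1 in set 1 stood at 50.3, 49.1, 66.6 and 48.4 CPM in KO against 11.5 and 2.71 in WT. The Col1a1 difference was -2.14 (SE 0.43, edgeR adjusted p = 0.0110), lost without 1b or 2b, with an adjusted p up to 0.159. Its KO levels overlapped between the sets. The summed feeder markers of KO samples overlapped between the sets as well, as did KO levels of Hmga2 and Csrp1. Tpm1, Cald1 and Krt18 stood higher in every set 1 KO sample than in any set 2 KO sample. Acta2, Lgals1 and Timp2 stood higher in every set 2 KO sample than in any set 1 KO sample. The part of feeder cells in these levels was not tested.

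The 80 genes divided by whether WT, KO or both differed between the sets. WT levels were higher in set 2 for 72 of the 80, more than 2-fold for 48, and KO levels were lower in set 2 for 59 and higher for 21. Over all 11946 genes tested, WT was higher in set 2 for 5856, more than 2-fold for 1818. KO was lower there for 6279 and higher for 5667. The median over the 80 genes was 1.29 log2 units in WT and -0.56 in KO (set 2 over set 1), against -0.02 and -0.05 over all genes tested. Of the 19 genes with a higher effect in set 2, 13 had a lower WT level there and 16 a higher KO level (6090 and 5667 of 11946 over all genes tested). The difference in KO effect equals the KO level difference minus the WT level difference. Choosing genes by its sign therefore favours the directions counted here. These level differences carry no test, since each is confounded with every other difference between the sets.

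**Figure D3:**
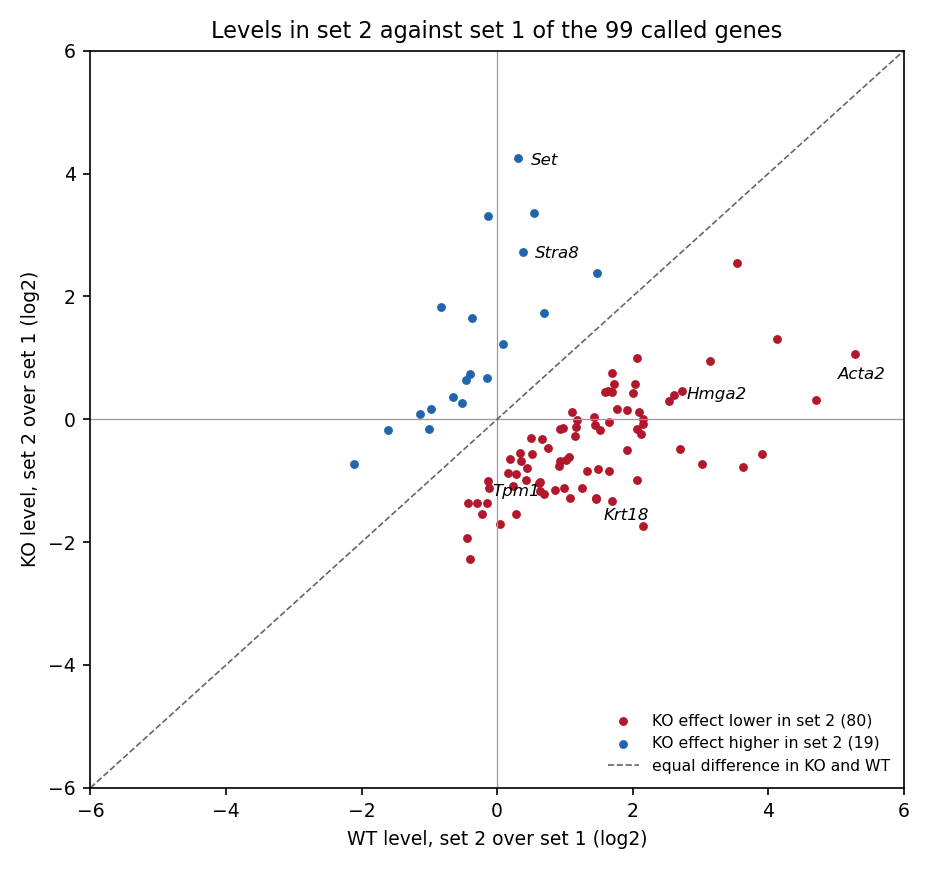
Log2 level in set 2 over set 1 for KO samples (vertical axis) against WT samples (horizontal axis), for the 99 called genes; red points have a lower and blue points a higher KO effect in set 2. Acta2 lies at 5.27 in WT and 1.06 in KO, Tpm1 at 0.85 and -1.15, and Set at 0.31 and 4.25.

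Guidance and patterning genes were also among the called ones. Of 33 semaphorin, ephrin and other guidance genes tested, 4 were called lower (Sema3c, Sema6a, Efna5 and Efnb2; background 0.67%) and 0 higher; without 1a the count was 0. Efnb2, a transmembrane ephrin ligand, stood at 15.2, 18.97, 24.7 and 19.5 CPM in set 2 KO and 18.4 and 12.99 in WT. Efnb2 in set 1 stood at 40.7, 32.0, 45.6 and 40.4 CPM in KO and 1.78 and 5.43 in WT. The Efnb2 difference was -3.05 (SE 0.50, edgeR adjusted p = 0.00151), with an adjusted p of 0.0861 without 1a. Sema6a averaged 66.5 CPM in set 2 KO and 36.9 in WT, against 59.6 in set 1 KO and 10.8 in WT (difference -1.60, adjusted p = 0.0278; up to 0.240 without 1 of 6 samples). Sema3c, a secreted semaphorin, had 1 count in set 1 WT and a KO to WT ratio there of 31.4 (95% interval 5.44 to 1257). Its difference was -4.41 (adjusted p = 0.00894), lost without 1a or 2b, with an adjusted p up to 0.172. Efna5, an ephrin ligand, had 3 counts in set 1 WT and a ratio of 19.4 (6.48 to 95.2). Its difference was -2.74 (adjusted p = 0.0334), lost without any 1 of 7 samples, with an adjusted p up to 0.241.

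In the TGF-β and BMP list, Fst and Id3 were called lower among 36 genes tested (background 0.67%), and 0 without 1a, 1b or 2b. Id3, a BMP target that blocks bHLH factors in ESCs, stood at 1389.6, 1388, 1322 and 960.0 CPM in set 2 KO against 538 and 629 in WT. Id3 in set 1 stood at 243, 199, 202 and 227 CPM in KO against 48.0 and 52.5 in WT. It rose in both sets, and its set 2 levels were above all set 1 levels in both genotypes. The difference was -0.996 (SE 0.24, edgeR adjusted p = 0.0392), lost without any 1 of 9 samples at adjusted p up to 0.259. Fst, the activin antagonist follistatin, averaged 32.4 CPM in set 2 KO and 17.5 in WT, against 45.7 in set 1 KO and 2.69 in WT (difference -3.19, adjusted p = 0.0120; lost without 1a, 1b or 2b, with an adjusted p up to 0.147).

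Further genes with a lower effect in set 2 came from lists with 1 to 3 calls. Nes (nestin) stood at 24.1, 41.8, 38.8 and 35.9 CPM in set 2 KO and 24.6 and 24.9 in WT. Nes in set 1 stood at 46.7, 66.9, 83.2 and 57.6 CPM in KO and 9.77 and 9.95 in WT. KO and WT overlapped in set 2 alone. The Nes difference was -2.17 (SE 0.39, edgeR adjusted p = 0.00452), with an adjusted p of 0.0804 without 1a. Pim2, a kinase, had a difference of -1.39 (adjusted p = 0.00394; up to 0.103 without 1a or 2a) and Pou3f1, a POU factor of primed cells, one of -1.04 (adjusted p = 0.0370; up to 0.386 without 1 of 6 samples). The Pou3f1 difference was -0.23 with library group A alone (adjusted p = 0.812) and -1.84 with B alone (adjusted p = 5.67e-05). It averaged 140 CPM in KO and 48.1 CPM in WT libraries of A, and 126 CPM in KO and 133 CPM in WT libraries of B. Tcf7l2, a nuclear partner of β-catenin, had one of -1.12 (adjusted p = 0.0163; up to 0.172 without 1a, 1b, 2a or 2b), and the G1 cyclin Ccnd2 one of -1.15 (adjusted p = 0.0278; up to 0.162 without 1 of 7 samples). Gap43, a growth cone protein, had a difference of -1.49 (adjusted p = 0.0451), and Ifitm3, an interferon-induced membrane protein, one of -1.06 (adjusted p = 0.0278). Phlda1 had one of -1.19 (adjusted p = 0.0301), which was -1.77 with library group A alone (adjusted p = 0.000369) and -0.28 with B alone (adjusted p = 0.719). It averaged 85.8 CPM in KO and 91.8 CPM in WT libraries of A, and 112 CPM in KO and 42.9 CPM in WT libraries of B. Cyp26a1, a retinoic acid hydroxylase, had -2.82 (adjusted p = 0.0372) from 3 counts in set 1 WT, where the KO to WT ratio was 8.76 (95% interval 2.85 to 43.8). Each of these 4 calls ended without any of at least 3 single samples. The adjusted p then reached 0.421 for Gap43, 0.153 for Ifitm3, 0.265 for Phlda1 and 0.349 for Cyp26a1.

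Of the named genes with a higher effect in set 2, Stra8 (chromosome 6, 34920163 to 34939344), a retinoic acid induced gene of germ cells entering meiosis, had the largest difference after Set. It stood at 39.0, 31.1, 43.0 and 27.8 CPM in set 2 KO, against 94.4 and 66.8 in set 2 WT. Stra8 in set 1 stood at 7.19, 7.83, 3.50 and 3.31 CPM in KO, against 63.0 and 59.7 in WT. Like Set, it was lower in KO of both sets, without overlap, and its set 1 KO samples lay below all others, while WT levels of the 2 sets lay close together. The KO1 effect was -1.201 in set 2 and -3.01 in set 1, and the KO2 effect -1.14 in set 2 and -4.16 in set 1. With KO1 as the only KO line the difference of 2.35 (SE 0.38, edgeR adjusted p = 0.00146) became 1.81 (adjusted p = 0.0493).

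The other named genes of this direction had smaller differences. Spry4, an inhibitor of FGF signalling through ERK, stood at 20.4, 23.2, 24.2 and 30.5 CPM in set 2 KO and 27.2 and 39.8 in WT. Spry4 in set 1 stood at 43.1, 28.5, 42.1 and 49.7 CPM in KO against 181 and 118 in WT. KO and WT overlapped in set 2 and not in set 1. The Spry4 difference was 1.39 (SE 0.31, edgeR adjusted p = 0.0252), lost without 1a, 1e, 2a, 2d or 2e, with an adjusted p up to 0.259. Ptch1, the Hedgehog receptor, stood at 60.6 to 65.0 CPM in set 2 KO, overlapping WT at 59.0 and 71.7. Ptch1 in set 1 stood at 43.1 to 66.9 CPM in KO against 171 and 118 in WT. The Ptch1 difference was 1.22 (edgeR adjusted p = 0.0105), lost without 1a or 2a, with an adjusted p up to 0.182. Triml1 averaged 16.8 CPM in set 2 KO and 25.0 in WT, against 19.19 in set 1 KO and 77.5 in WT (difference 1.43, adjusted p = 0.0331; up to 0.203 without 1 of 9 samples). For these 3 genes the KO effect did not pass in set 2 and the WT level differed more between the sets than the KO level did.

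Both Wnt pathway genes among them showed higher KO levels in set 2. Lef1, a nuclear partner of β-catenin, stood at 48.3, 57.8, 52.7 and 56.4 CPM in set 2 KO against 74.1 and 60.8 in WT. Lef1 in set 1 stood at 34.7, 28.5, 42.9 and 25.8 CPM in KO against 85.2 and 91.4 in WT. The Lef1 difference was 1.13 (SE 0.26, edgeR adjusted p = 0.0293), with an adjusted p up to 0.228 without 1 of 7 samples. It was 1.64 with library group A alone (adjusted p = 0.00192) and 0.51 with B alone (adjusted p = 0.426). In A, Lef1 averaged 56.3 CPM in KO and 48.8 CPM in WT libraries, and in B 52.5 CPM in KO and 99.1 CPM in WT libraries, so KO lay below WT of set 2 in B and above it in A. Fzd5, a Wnt receptor, stood at 90.2, 91.1, 98.7 and 103 CPM in set 2 KO against 158 and 171 in WT. Fzd5 in set 1 stood at 33.5, 25.6, 24.5 and 31.8 CPM in KO against 91.5 and 112 in WT. It fell in both sets, by 0.78 in set 2 (adjusted p = 0.000362) and by 1.83 in set 1 (adjusted p = 4.97e-08), with a difference of 1.04 (SE 0.23, adjusted p = 0.0229; up to 0.154 without 1b, 1e, 2a, 2b or 2e). Axin2, a β-catenin target, had a difference of 0.24 (SE 0.49, adjusted p = 0.901). The oxygen sensor Egln3 had a difference of 1.10 (adjusted p = 0.0392), which was 1.64 with library group A alone (adjusted p = 0.00166) and 0.52 with B alone (adjusted p = 0.434). Egln3 averaged 46.7 CPM in KO and 43.7 CPM in WT libraries of A, and 49.8 CPM in KO and 104 CPM in WT libraries of B. The nuclear envelope gene Sun1 had a difference of 0.91 (adjusted p = 0.0347). Tm7sf3 had 1.14 (adjusted p = 0.0116), Ldlrad3 1.14 (adjusted p = 0.0429) and Rcbtb1 1.01 (adjusted p = 0.0475). None of these 5 passed in set 2. Each call ended without any of at least 3 single samples, when the adjusted p reached 0.331 for Egln3, 0.179 for Sun1, 0.124 for Tm7sf3, 0.215 for Ldlrad3 and 0.340 for Rcbtb1.

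**Figure D4:**
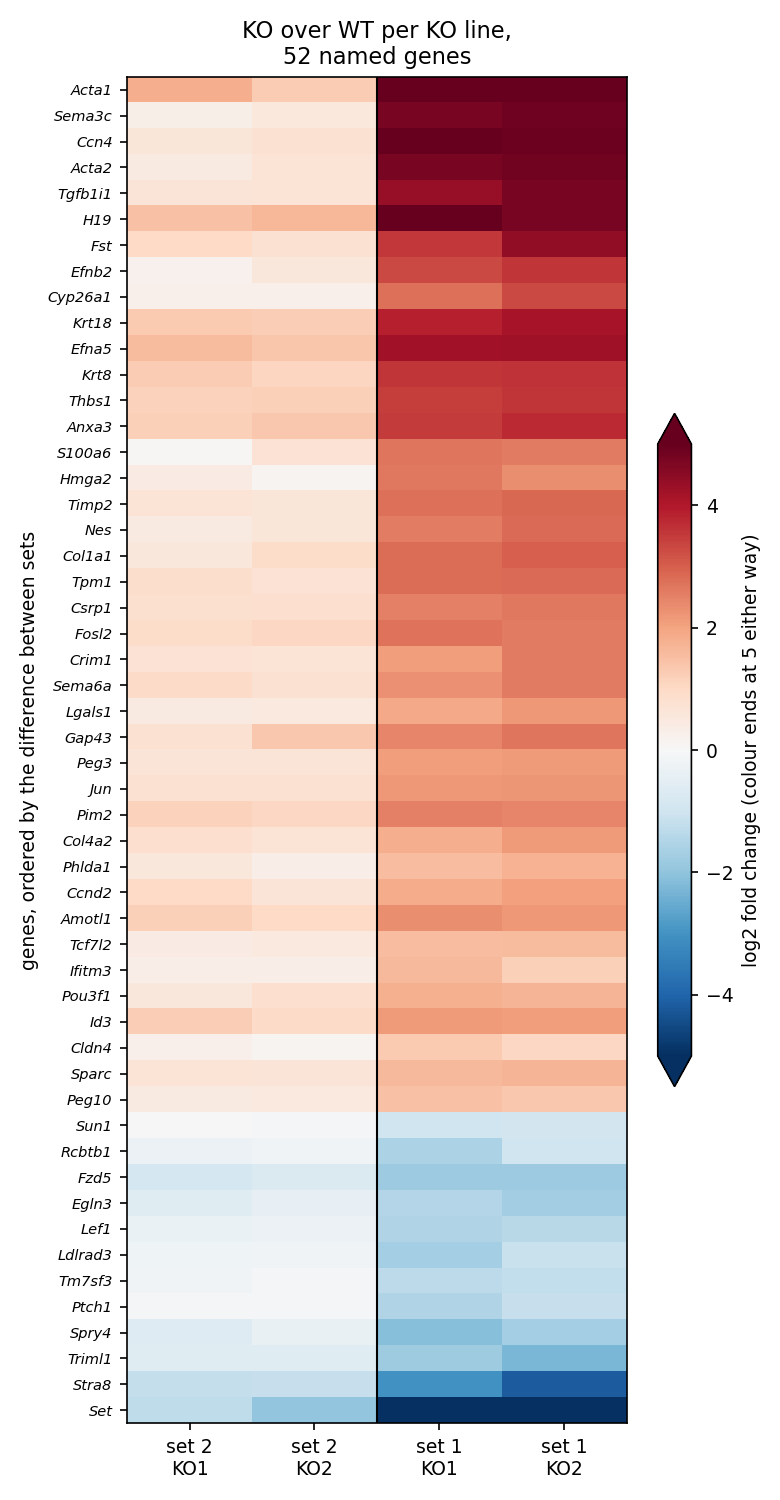
Log2 fold change of KO over the WT samples of the same set for lines KO1 and KO2 of set 2 (left) and of set 1 (right), for the 52 named genes ordered by the difference between sets; colour runs from blue (lower in KO) through white to red (higher in KO). Both lines of set 1 are deeper in colour than both lines of set 2 for the genes shown, as for Acta2 at 0.45 and 0.68 in set 2 and 4.76 and 4.82 in set 1.

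Effects were also taken for each KO line. The Acta2 effect was 0.45 in KO1 and 0.68 in KO2 of set 2, and 4.76 and 4.82 in set 1. Tpm1 had 0.89 and 0.73 in set 2 and 2.80 and 2.83 in set 1, Krt18 had 1.31 and 1.24 and then 3.89 and 4.14, and Hmga2 had 0.40 and 0.14 and then 2.62 and 2.33. The lines were further apart for S100a6 in set 2, at 0.04 in KO1 and 0.71 in KO2. Line goes in part with library group there, as KO1 sample 2c lay in B alone and KO2 sample 2f in A alone. S100a6 stood at 536 to 868 CPM in KO libraries of A and at 344 to 382 in those of B. The 2 were not separated. Taking KO1 as the only KO line, the interaction called 67 genes, 49 of them among the 99, and taking KO2 alone it called 90, 62 among the 99. The 4 marker genes and Set were called with either line. The lines of a set share their WT samples, so agreement between them is not independent of those samples.

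No core or naive pluripotency gene was called between the sets. Of 38 core and naive pluripotency genes tested, edgeR called 0 in the interaction, 11 had an unadjusted p under 0.05 and DESeq2 called 1. Over all 11946 genes tested these counts were 99, 1282 and 122. The share with an unadjusted p under 0.05 was thus larger in the list, and the lack of calls does not show equal effects. In set 2, 22 were called lower in KO (background 2.91%) and in set 1, 26 (background 6.28%), with medians of -0.57 and -0.91. The median difference was 0.30, against -0.02 over all genes tested. Klf4 stood at 172 to 256 CPM in set 2 KO and 429.6 and 464 in WT. Klf4 in set 1 stood at 89.7 to 131 CPM in KO, against 380.1 and 303 in WT. The Klf4 difference was 0.42 (SE 0.23, edgeR adjusted p = 0.528). Esrrb had a difference of 0.55 (SE 0.24, adjusted p = 0.390), Sox2 one of 0.48 (SE 0.19, adjusted p = 0.341) and Nanog one of 0.35 (SE 0.25, adjusted p = 0.642). Nanog passed the KO test in set 1 (log2 -0.75, adjusted p = 0.00500) and did not in set 2 (-0.40, adjusted p = 0.164).

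The p53 targets had no called difference either. Of 46 tested, edgeR called 0, 4 had an unadjusted p under 0.05 (1282 of 11946 over all genes tested) and DESeq2 called 0. The medians were 0.28 in set 2 and 0.39 in set 1, with 15 and 13 genes called higher in KO (backgrounds 4.36% and 7.84%). Cdkn1a, the cyclin-dependent kinase inhibitor p21, stood at 190.5, 191, 189 and 224 CPM in set 2 KO against 74.4 and 69.1 in WT. Cdkn1a in set 1 stood at 241, 276, 229 and 167 CPM in KO against 40.8 and 65.1 in WT, with KO and WT apart in both sets. The Cdkn1a difference was -0.63 (SE 0.27, edgeR adjusted p = 0.372). Mdm2, the ligase that degrades p53, rose by 0.82 in set 2 and 0.88 in set 1 (adjusted p = 0.000481 and 0.000277), with a difference of -0.06 (SE 0.21, adjusted p = 0.945). Its levels differed between sets in both genotypes, at 454 to 651 CPM in set 2 KO and 295 and 302 in WT, against 287 to 331 in set 1 KO and 174 and 160.1 in WT. A p that misses the threshold does not show that the effects were equal, and at the SE of 0.27 a difference of the size seen for Cdkn1a could not be called.

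**Figure D5:**
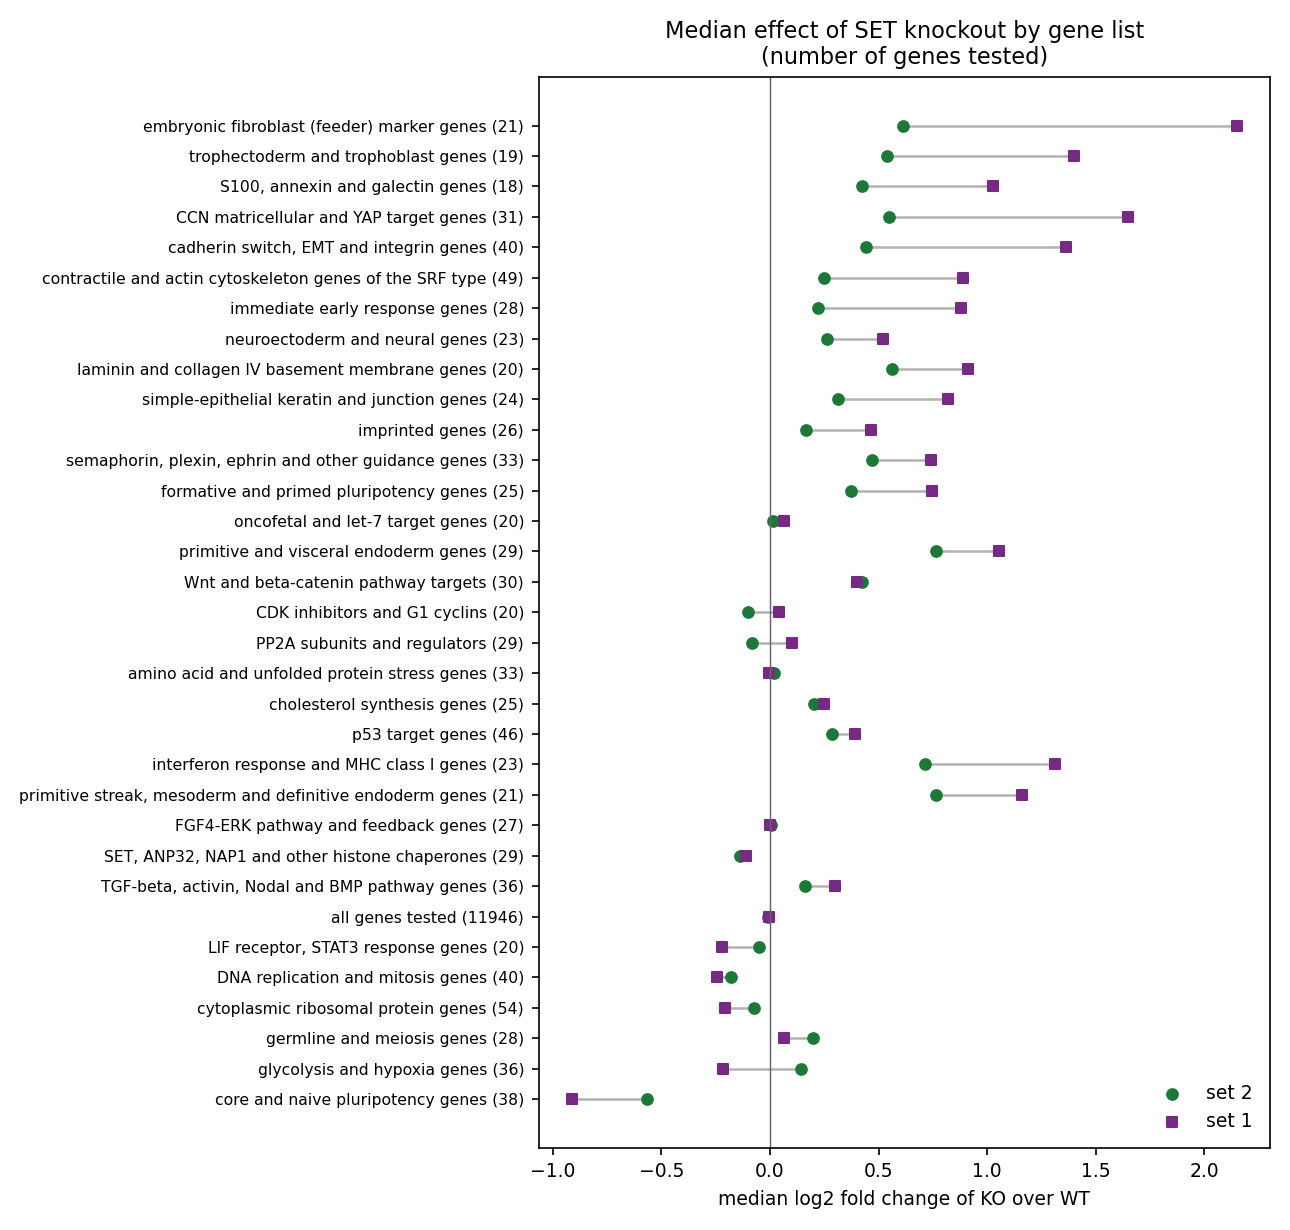
Median log2 fold change of KO over WT in set 2 (green circles) and set 1 (purple squares) for each gene list with at least 5 genes tested and for all genes tested, ordered by the median difference between sets, with the number of genes tested in parentheses. Feeder markers lie at 0.61 in set 2 and 2.15 in set 1, contractile genes at 0.25 and 0.89, p53 targets at 0.28 and 0.39, and core and naive pluripotency genes at -0.57 and -0.91.

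In 6 other lists edgeR and DESeq2 each called 0 genes. The number with an unadjusted p under 0.05 was 4 of 20 for the LIF and STAT3 response and 7 of 21 for primitive streak and mesendoderm genes. It was 1 of 40 for DNA replication and mitosis and 4 of 25 for cholesterol synthesis. It was 5 of 33 for amino acid and unfolded protein stress and 5 of 54 for ribosomal protein genes. Over all 11946 genes, 1282 had an unadjusted p under 0.05 and DESeq2 called 122, of which 91 were among the 99. The share with an unadjusted p under 0.05 was larger than this in the LIF, streak, cholesterol and stress lists. It was smaller in the replication and ribosomal lists. The lack of calls thus does not show equal effects. The list of 2-cell-like genes had no member with enough counts to be tested. Calls by list not given above, beside backgrounds of 0.67% for lower and 0.159% for higher calls, were Krt8 and Krt18 of 19 trophectoderm genes and Nes and Gap43 of 23 neuroectoderm genes. Of 25 formative and primed genes, Pou3f1 and Pim2 were called lower and Lef1 higher. Of 30 Wnt genes, Ccn4, Tcf7l2 and Ccnd2 were called lower and Lef1 higher. Of 27 FGF and ERK genes, Phlda1 was called lower and Spry4 higher. Stra8 and Triml1 were called higher among 28 germline genes and Egln3 among 36 of glycolysis and hypoxia. Ccnd2 was called lower among 20 G1 cyclins and inhibitors and Ifitm3 among 23 interferon genes. These counts rested on single samples too, since each count of lower calls became 0 without 1a, except 1 for trophectoderm. Set was the only called member of the histone chaperone list (29 tested) and of the PP2A list (29 tested).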

How the data were processed

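Deposited values were raw read counts per gene and library. The submitters' processing notes name STAR 2.5.4b, featureCounts, Subread 2.0.0 and the build GRCm38. The file headers instead record featureCounts 1.6.0 with the Ensembl 97 annotation. Read counts from 3′ tags are not divided by gene length, and the labels do not say whether counting used strand.

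Each file held 55573 genes, of which 179 had no symbol (at most 0.0007% of counts) and stayed out of library sizes; 1569 Y-chromosome genes were left out. Libraries of the same code were summed. The 12 samples were fitted with edgeR 4.0.16 (quasi-likelihood F test, robust, TMM scaling) in R 4.3.3 with limma 3.58.1, with set and KO or WT as 4 groups, after filterByExpr (minimum count 10, minimum total 15). The contrast was KO minus WT in set 2, minus KO minus WT in set 1, with Benjamini-Hochberg adjustment over all 11946 genes tested and a threshold of 0.05. SE and log2 values come from that fit. The script was tested on simulated data. DESeq2 1.42.0, other filters and scalings, single KO lines, library groups and each sample left out served as alternatives. Tables and figures used Python 3.11.15, pandas 2.3.3, numpy 2.4.6 and matplotlib 3.10.9.

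Depth was 806412 to 10217040 counts per sample; floors of 3 counts and 95% intervals (exact, for count ratios) cover counting error only. Named genes were Set, the 4 markers, up to 12 called genes in each direction with the largest differences and a mean of at least 10 CPM in a group, without predicted genes, and up to 3 called genes per list by adjusted p; 1 gene of this rule is not reported here. Other genes were named to fill out a list and were chosen with their values known. The compared samples, markers, gene lists and tests were chosen with earlier results of these data known.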

Additional observations from a re-analysis of the deposited data

Results flagged for a closer look

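Among groups of 4 samples, the highest or lowest of the 4 stood apart from the other 3 in 9 of 104 checks of the named genes (its gap to the nearest sample, over the whole range, exceeded Dixon's 95% critical value of 0.829); chance alone does so in about 1 of 20. In set 2 KO, sample 2f was low for Tpm1 (519 CPM), Fst (24.2 CPM) and Id3 (960.0 CPM), 2c was high for Cldn4 (269.9 CPM) and 2e high for Anxa3 (52.2 CPM). Sample 2f came from library group A alone and 2c from B alone. KO libraries of A and B stood at 504 to 534 and 660 to 751 CPM for Tpm1, and 23.9 to 26.2 and 34.7 to 44.1 for Fst. They stood at 854 to 1336 and 1382 to 1480 for Id3, and 186 to 225 and 244 to 268 for Cldn4. The flags of 2f and 2c thus go together with library group. In set 1 KO, sample 1c was low for Acta2 (105 CPM), and 1e was low for Egln3 (23.7 CPM) and high for Gap43 (116 CPM) and Col1a1 (66.6 CPM).

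Each of the 52 genes named by the rule above has a KO effect that differed between set 2 and set 1 by the interaction test. That test is the comparison of the report. Apart from Set and the 4 markers, these genes were named because this test called them. The most negative log2 differences (set 2 minus set 1) were -4.47 for Acta1, -4.41 for Sema3c, -4.39 for Ccn4, -4.22 for Acta2, -3.90 for Tgfb1i1, -3.75 for H19, -3.19 for Fst, -3.05 for Efnb2, -2.82 for Cyp26a1 and -2.75 for Krt18. Next came differences of -2.74 for Efna5, -2.42 for Krt8, -2.37 for Thbs1, -2.35 for Anxa3, -2.23 for S100a6, -2.21 for Hmga2, -2.19 for Timp2, -2.17 for Nes, -2.14 for Col1a1, -2.003 for Tpm1 and -1.76 for Csrp1. Smaller in size were -1.70 for Fosl2, -1.68 for Crim1, -1.60 for Sema6a, -1.57 for Lgals1, -1.49 for Gap43, -1.47 for Peg3, -1.43 for Jun, -1.39 for Pim2, -1.21 for Col4a2, -1.19 for Phlda1 and -1.15 for Ccnd2. The smallest negative ones were -1.14 for Amotl1, -1.12 for Tcf7l2, -1.06 for Ifitm3, -1.04 for Pou3f1, -0.996 for Id3, -0.99 for Cldn4, -0.99 for Sparc and -0.93 for Peg10. The positive differences were 3.94 for Set, 2.35 for Stra8, 1.43 for Triml1, 1.39 for Spry4, 1.22 for Ptch1, 1.14 for Tm7sf3, 1.14 for Ldlrad3, 1.13 for Lef1, 1.10 for Egln3, 1.04 for Fzd5, 1.01 for Rcbtb1 and 0.91 for Sun1.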

How the results depend on the processing

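The count of 99 genes whose KO effect differed between the sets was 170 with no filter on low counts, 57 when each line of a set was 1 summed sample, and 42 with unsummed libraries and a replicate block. Leaving out each sample in turn gave 22 to 126 calls between the sets, 126 to 1189 for KO against WT in set 2 and 783 to 1769 in set 1. The set 2 count of 869 was 552 with KO2 as the only KO line and 371 with library group A alone. The other alternatives kept these 3 counts within 1.5 times, among them DESeq2 (122 between the sets), DESeq2 size factors (100) and a stricter filter (80). Genes with a lower KO effect in set 2 made up 80.8% of the calls, and 71.2% to 90.3% over the alternatives. The 52 named genes kept the sign of their difference in all 1288 checks, of which 941 passed the threshold and 347 did not; 9 genes passed in all. Samples with the same replicate number deviated together with correlations of -0.0894 to 0.0362 in set 1 and -0.262 to 0.212 in set 2. Of 15 libraries, 3 correlated best with their own number. The check could not exclude pairing. In set 1 the 2 samples of a group deviate from their mean in exactly opposite ways, and in set 2 the replicate numbers cross library groups A and B. Depth limits the set 1 side: 13 of the 80 genes with a lower effect in set 2 held under 10 counts over both set 1 WT samples (1489 of 11946 over all genes tested). The cause of these shifts was not tested, except that dropping a WT sample leaves 1.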
